A study of Rattus norvegicus with 20 samples.

Results

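The lowest-dose comparison set ovaries of female Sprague Dawley rats whose mothers ate the lowest dose of a brominated flame retardant mixture against ovaries of rats whose mothers ate the same diet without it. It used 9 of the 20 one-colour microarrays in the series, chosen by the dose in their titles: 4 at 0.06 mg/kg/day (replicates 1, 2, 3 and 5) and 5 at 0 mg/kg/day (replicates 1 to 5), 1 ovary RNA sample to an array. Dams at 0.06 mg/kg/day received feed made with 0.75 mg of mixture per kg, a nominal dose that assumes a fixed food intake, and control dams received feed with 0 mg/kg. Of the mixture, 52.1% was DE-71, a further 44.2% was BDE-209 and 0.4% was DE-79, which are all polybrominated diphenyl ether preparations, and 3.3% was hexabromocyclododecane. Feeding began at least a week before mating and stopped at weaning on postnatal day 21. The daughters were therefore exposed through the dam and taken at 46 days of age in both groups, after a stretch without treated feed. Litter and stage of the oestrous cycle are not given in the labels, and it is not known whether any of these samples were littermates. The limma p-values below therefore rest on the spread between samples, taken within dose groups over all 20 arrays. The exact permutation tests use the 9 samples alone.

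A rat ovary at this age holds growing follicles and, once ovulation has begun, corpora lutea. In a follicle, theca cells under luteinizing hormone make androgens, granulosa cells under follicle-stimulating hormone turn them into oestrogens and secrete inhibins, and the oocyte signals to both. After ovulation the follicle wall becomes a corpus luteum that makes progesterone, and in the rat the enzyme encoded by Akr1c18 (20-alpha-hydroxysteroid dehydrogenase, listed in the current annotation as Akr1c3) inactivates progesterone as that gland ages. Polybrominated diphenyl ethers are lipid-soluble, persist in tissue, pass to young in milk, and are best known for lowering circulating thyroid hormone and for raising liver enzymes under the nuclear receptors CAR and PXR.

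Whole ovaries were profiled, so a lower value could mean fewer cells of a type or less RNA per cell, and these cannot be told apart. Levels are log2 signal relative to the 75th percentile of the same array, and values are listed in the order of the replicate numbers. The signal at that percentile was 1196 to 1552 units on the 0.06 arrays and 1419 to 1737 units on the control arrays, a difference of -241 units (exact permutation test, two-sided, p = 0.0794, where the smallest p possible is 0.0159). Spots well above background made up 74.8 to 79.9% on the 0.06 arrays and 77.9 to 83.4% on control arrays (exact permutation test, two-sided, p = 0.0952). No spot was saturated. The 9 arrays lay on 3 slides, each holding both groups: 2 exposed and 2 control arrays on slide 1, 1 and 1 on slide 2, and 1 and 2 on slide 3. Ovarian genes were well above background on all 9 arrays, among them Cyp11a1 and Star of steroid synthesis, Inha and Amh of granulosa cells, and Zp3 and Gdf9 of oocytes.

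No gene passed the test at the lowest dose. Of 23258 probes, 0 reached an adjusted p under 0.05 in limma (0.0%), and the lowest Benjamini-Hochberg adjusted p was 1.00. At an unadjusted p under 0.05 there were 710 probes (3.05%), 333 above the control mean (1.43%) and 377 below it (1.62%). Taking 1 probe for each of the 12452 genes with a symbol, 433 genes (3.48%) had an unadjusted p under 0.05, 216 above (1.73%) and 217 below (1.74%); 47.0% of genes lay above the control mean, and the median difference over all genes was -0.01 log2. The residual SD of a probe had a median of 0.28 log2 and the standard error of the difference a median of 0.18 log2. For 85.4% of genes the 95% interval of the difference, not adjusted for the number of genes, lay within 2-fold of no difference, and for 62.0% it lay within 1.5-fold. A difference of over 1 log2 in either direction was measured for 113 genes (0.907%), none of which passed the adjusted test.

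The genes of smallest unadjusted p are a description of where the 2 groups lay furthest apart relative to the spread within dose groups over the 20 arrays. In each direction the 15 genes of smallest p were taken, and 29 are described here. Their differences spanned 0.31 to 1.60 log2 above the control mean and -0.83 to -0.24 log2 below it. Among the 15 above, all 4 exposed arrays exceeded every control array for 7 genes. Among the 14 below, all 4 lay under every control array for 7 genes. Over all 12452 genes these shares were 0.337% and 0.377%. The genes here were chosen for their p on the same arrays, which favours genes without overlap, so the counts are no further result. Each of the 29 genes had an adjusted limma p of 1.00.

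**Figure D1:**
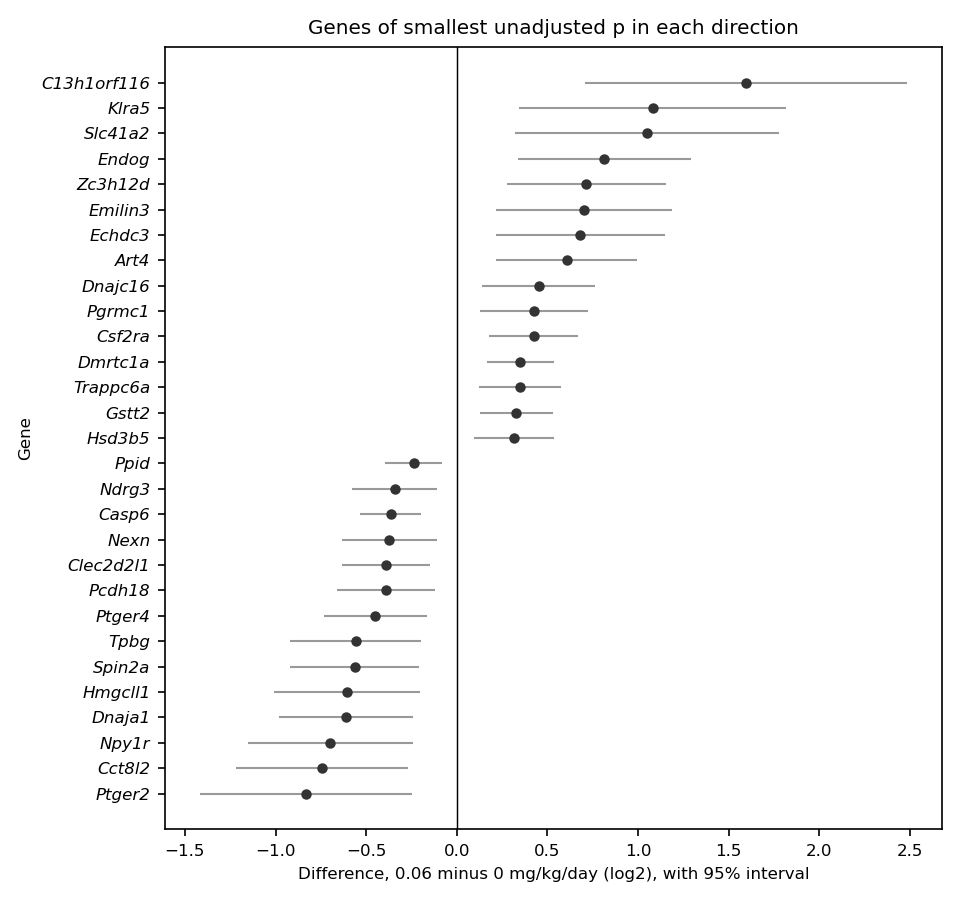
Difference between 0.06 and 0 mg/kg/day (log2, x axis) for the 29 genes of smallest unadjusted p (rows), as points with 95% intervals from the limma fit. The intervals are not adjusted for the number of genes, and the genes were chosen for their p, which is why none spans 0; the points run from -0.83 for Ptger2 to 1.60 for C13h1orf116.

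Casp6, which encodes an executioner caspase of apoptosis, had the smallest p of all the genes named. It stood at 0.22, 0.22, 0.25 and 0.35 on the 0.06 arrays, against 0.77, 0.59, 0.54, 0.71 and 0.52 on the control arrays. The groups did not overlap, and the exposed arrays lay close together. The difference was -0.37 ± 0.08 log2 (SE), a ratio of 0.78, with an unadjusted limma p of 0.000250. Endog, the mitochondrial endonuclease G that cuts DNA in dying cells, lay the other way. It read -1.20, -0.73, -0.92 and -0.87 on the 0.06 arrays, against -2.04, -1.69, -2.08, -1.47 and -1.43 on control arrays. Every exposed array was above every control array, at a difference of 0.82 ± 0.23 log2 or 1.76-fold. Over the apoptosis list, 18 of 43 tested genes lay above the control mean and 4 (9.30%, beside 3.48% of all genes) had an unadjusted p under 0.05: Endog and the death receptor gene Fas (0.44 log2) above, Casp6 and the nuclease inhibitor gene Dffa (-0.18 log2) below. For Fas and Dffa, another probe of the same gene had the opposite sign. After normexp Fas stood at 0.27 log2. The list median was -0.07 log2, beside -0.01 over all genes, and -0.0077 without replicate 3 at 0.06.

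Of 24 tested genes of steroid synthesis, 14 lay above the control mean and 10 below, without any passing the test. Star, the carrier that brings cholesterol into mitochondria, stood at 5.68, 5.51, 5.22 and 5.40 on the 0.06 arrays, against 4.49, 4.66, 5.39, 5.10 and 5.02 on control arrays. Replicates 1, 2 and 5 at 0.06 exceeded all controls and replicate 3 lay within their range; the difference was 0.52 ± 0.25 log2. Cyp11a1, which cleaves the cholesterol side chain, differed by 0.29 ± 0.17 log2, Hsd3b1 by 0.15 ± 0.09 log2, and Fdxr, the reductase that supplies electrons to Cyp11a1, by 0.30 ± 0.14 log2. Hsd3b5 averaged 5.37 ± 0.15 on the 0.06 arrays and 5.06 ± 0.13 on control arrays (SD, n = 4 and 5), but it has close relatives among the Hsd3b genes whose transcripts its probe could also read. The lowest of the list was Cyp17a1 at -0.71 ± 1.86 log2. In the list 1 gene (Fdxr, 4.17%, beside 3.48% of all genes) had an unadjusted p under 0.05. The list median was 0.15 log2, and within slides 1, 2 and 3 it was 0.14, 0.15 and 0.15. It was 0.11 without control replicate 5 and 0.24 without replicate 5 at 0.06.

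Genes of cholesterol supply lay above the control mean for 23 of 32 tested genes, and luteal genes for 18 of 27. Dhcr7, the last enzyme of cholesterol synthesis, stood at 4.30, 4.00, 3.88 and 3.71 on the 0.06 arrays, against 3.31, 3.82, 3.73, 3.55 and 3.27 on control arrays. Replicate 5 at 0.06 overlapped the controls, and the difference was 0.43 ± 0.15 log2. Scarb1, the receptor through which ovarian cells take up cholesterol from lipoproteins, held between 5.91 and 5.97 on all 4 exposed arrays and between 5.22 and 6.00 on controls, a difference of 0.39 ± 0.20 log2. In the cholesterol list 3 genes (9.38%, beside 3.48% of all genes) had an unadjusted p under 0.05, Dhcr7 and the hormone-sensitive lipase gene Lipe (0.55 log2) above and Lcat (-0.29 log2) below. Its median of 0.23 log2 was 0.49 and 0.37 on slides 1 and 2 and -0.32 on slide 3, and it was 0.07 without replicate 2 and 0.39 without replicate 5 at 0.06. In the corpus luteum list differences ran from -0.93 to 0.57 log2, and limma gave an unadjusted p under 0.05 for 0 of 27. The median of that list was 0.17 log2, 0.12 without control replicate 4 and 0.29 without control replicate 3. The prolactin receptor gene Prlr differed by 0.47 ± 0.27 and the prostaglandin F receptor gene Ptgfr by 0.57 ± 0.34 log2.

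Receptors for sex steroids lay on both sides of the control mean. Pgrmc1, a membrane protein that binds haem and is named for a role in progesterone responses, stood at 2.56, 3.03, 2.44 and 2.39 on the 0.06 arrays, against 1.97, 2.21, 2.29, 1.95 and 2.48 on control arrays. The groups overlapped at control replicate 5. The difference was 0.43 ± 0.14 log2, and both other probes of the gene had the same sign. Of 27 genes in the receptor list, 15 lay above the control mean, and 4 (14.8%, beside 3.48% of all genes) had an unadjusted p under 0.05, among them Pgrmc1 and Esr1 (0.63 ± 0.25 log2) above and Esr2 (-0.48 ± 0.20 log2) below. Esr2 encodes the oestrogen receptor of granulosa cells and Esr1 that of theca and stroma. After normexp Esr1 stood at 0.32 and Esr2 at -0.26 log2. The list median was 0.02 log2, and -0.03 without replicate 5 at 0.06.

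Granulosa cell genes lay below the control mean more often than above it. Inha, the alpha subunit of the inhibins, stood at 5.36, 5.55, 5.40 and 5.30 on the 0.06 arrays, against 5.78, 5.61, 5.53, 5.73 and 5.83 on control arrays. Only replicate 2 at 0.06 reached into the control range; the difference was -0.30 ± 0.12 log2. Inhba, the activin and inhibin beta subunit, differed by -0.65 ± 0.36 log2, Amh, anti-Müllerian hormone, by -0.55 ± 0.40 log2, and Fshr, the receptor for follicle-stimulating hormone, by -0.34 ± 0.25 log2. Of 24 tested genes in the list, 5 lay above and 19 below, Inha and Esr2 (8.33%, beside 3.48% of all genes) had an unadjusted p under 0.05, and the median was -0.11 log2. It was -0.18 without control replicate 4 and -0.05 without control replicate 5. In the TGF-beta, activin and BMP list, 24 of 33 genes lay below, and 2 of these (6.06% of the list, beside 3.48% of all genes) had an unadjusted p under 0.05, among them the latent TGF-beta binding protein gene Ltbp1 (-0.49 ± 0.17 log2). The median was -0.14 log2, -0.05 without replicate 1 at 0.06 and -0.03 after normexp. Of 18 theca and interstitial genes, 6 lay above the control mean, Star the highest of them, and 12 below, among them the Leydig and theca hormone gene Insl3 at -0.43 ± 0.32 and the hedgehog effector gene Gli2 at -0.32 ± 0.12 log2. Among these 18, 1 gene (5.56%, beside 3.48% of all genes) had an unadjusted p under 0.05. The median of the theca and interstitial list was -0.12 log2, -0.02 without control replicate 5 and -0.04 after normexp.

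All 22 tested oocyte genes had a mean below that of the controls, yet the order depended on the slide. The list median was -0.17 log2, and within slides 1, 2 and 3 it was 0.36, -0.59 and -0.43. Without replicate 3 at 0.06 the median was -0.0029 log2, and without replicate 2 it was -0.29. Gdf9, a growth factor the oocyte secretes to granulosa cells, stood at -0.40, 0.02, -1.07 and -0.23 on the 0.06 arrays, against -0.68, -0.55, -0.44, 0.49 and 0.03 on control arrays. Replicate 3 at 0.06 was the lowest and control replicates 4 and 5 were among the highest. Its partner Bmp15 differed by -0.38 ± 0.34 log2, Dazl, an RNA-binding protein of germ cells, by -0.34 ± 0.37, Zp3 of the zona pellucida by -0.11 ± 0.27 and Kit, the receptor for stem cell factor, by -0.72 ± 0.44. With normexp background correction Bmp15 turned to 0.05 log2, and Dazl stood at -0.13 and Kit at -0.45. Genes of 1 cell type share the same arrays and are not independent of each other, and 0 of the 22 had an unadjusted p under 0.05 in limma.

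Genes of ovulation and of prostaglandin signalling included several of small p that were dim. Ptger4 and Ptger2 encode the prostaglandin E2 receptors EP4 and EP2, and Ptger2 serves cumulus expansion. Ptger2 stood at -6.60, -6.19, -5.53 and -5.06 on the 0.06 arrays, against -5.51, -5.50, -5.17, -4.60 and -4.31 on control arrays. Only replicate 5 at 0.06 overlapped the controls; the difference was -0.83 ± 0.28 log2, and on slides 1, 2 and 3 it was -0.89, -0.37 and -0.61. With normexp background correction it was -0.18 log2. Ptger4 differed by -0.45 ± 0.14 log2, and with normexp by 0.10 log2, so its direction rested on how background was treated. Each of these genes was well above background on 3 of 4 exposed arrays and 5 of 5 controls. Of 29 genes in the prostaglandin list, 19 lay above the control mean, 2 had an unadjusted p under 0.05 (6.90%, beside 3.48% of all genes), and its median was 0.07 log2 (0.0094 without control replicate 1). In the ovulation list 15 of 21 genes lay below, at a median of -0.18 log2 (-0.07 without replicate 2 at 0.06). An unadjusted p under 0.05 was reached by 1 of its genes (4.76%, beside 3.48% of all genes). Tnfaip6, which stabilises the cumulus matrix, differed by -0.94 ± 0.38 log2 and by -0.05 after normexp.

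Immediate early genes, which respond within minutes to hormones and to handling, were high on 1 control array. Fos stood at -2.50, -2.78, -4.04 and -2.04 on the 0.06 arrays, against 0.16, -1.74, -3.20, -2.27 and -2.57 on control arrays. Control replicate 1 was the highest of the 9, and the other control arrays lay within the exposed range or close to it. Over the list 24 of 29 genes lay below the control mean. An unadjusted p under 0.05 was reached by 1 gene (3.45%, beside 3.48% of all genes). The list median of -0.29 log2 became -0.11 without control replicate 1. Within slides 1, 2 and 3 the median was -0.74, -0.34 and 0.26. Nr4a3 differed by -1.18 ± 0.59 (-0.36 after normexp) and Klf6 by -0.40 ± 0.20 log2. Ccn1, a matricellular protein gene of the same list, averaged 0.35 ± 0.45 on the 0.06 arrays and 1.11 ± 0.38 on control arrays (SD, n = 4 and 5) and did not overlap between groups.

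In the heat shock list, 4 genes had an unadjusted p under 0.05, and all 4 lay below the control mean. Dnaja1, an HSP40 co-chaperone of HSP70, stood at 2.49, 2.65, 2.78 and 2.61 on the 0.06 arrays, against 3.28, 3.79, 3.01, 3.45 and 2.69 on control arrays. Control replicate 5 lay among the exposed arrays and the other controls above them; the difference was -0.61 ± 0.18 log2. Hsph1, a nucleotide exchange factor of HSP70, differed by -0.58 ± 0.20 log2, and Bag3, an HSP70 partner in disposal of misfolded protein, by -0.29 ± 0.10 log2. Chordc1, an HSP90 co-chaperone named outside the naming rule after its value was seen, differed by -0.37 ± 0.15 log2. Over the list, 28 of 42 genes lay below the control mean, 4 (9.52%, beside 3.48% of all genes) had an unadjusted p under 0.05, and the median was -0.06 log2. The median was -0.12 log2 without control replicate 5 and -0.05 without control replicate 2.

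The promoters of these 4 genes are shown because heat shock factor binds repeats of GAA and TTC, and the genes lay on the same side. Each sequence is RefSeq's on GRCr8, plus strand, from 250 bases before to 50 bases after the gene start, and capitals mark every match to GAANNTTC or TTCNNGAA, each of which reads the same on both strands and may overlap the other. The windows are chr5:60638154-60638453 for Dnaja1, chr12:10427118-10427417 for Hsph1, chr1:192533210-192533509 for Bag3 and chr8:23650571-23650870 for Chordc1.
Dnaja1: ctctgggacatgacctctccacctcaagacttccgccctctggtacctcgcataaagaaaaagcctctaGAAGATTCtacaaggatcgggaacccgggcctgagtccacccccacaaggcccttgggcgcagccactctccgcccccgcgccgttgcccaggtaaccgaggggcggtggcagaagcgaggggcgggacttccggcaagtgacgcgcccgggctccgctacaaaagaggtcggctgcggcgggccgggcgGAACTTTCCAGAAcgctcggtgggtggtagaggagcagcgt
Hsph1: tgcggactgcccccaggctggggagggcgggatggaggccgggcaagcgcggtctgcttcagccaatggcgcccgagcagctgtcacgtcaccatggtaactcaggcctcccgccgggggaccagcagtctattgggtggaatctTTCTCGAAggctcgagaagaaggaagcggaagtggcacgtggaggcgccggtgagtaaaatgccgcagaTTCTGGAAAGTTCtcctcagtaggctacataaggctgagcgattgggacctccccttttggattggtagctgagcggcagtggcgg
Bag3: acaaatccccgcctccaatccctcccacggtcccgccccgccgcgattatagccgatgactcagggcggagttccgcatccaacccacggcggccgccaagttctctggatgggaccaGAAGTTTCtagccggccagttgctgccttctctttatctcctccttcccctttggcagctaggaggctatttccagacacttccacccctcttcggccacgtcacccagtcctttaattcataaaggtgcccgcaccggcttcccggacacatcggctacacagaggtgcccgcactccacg
Chordc1: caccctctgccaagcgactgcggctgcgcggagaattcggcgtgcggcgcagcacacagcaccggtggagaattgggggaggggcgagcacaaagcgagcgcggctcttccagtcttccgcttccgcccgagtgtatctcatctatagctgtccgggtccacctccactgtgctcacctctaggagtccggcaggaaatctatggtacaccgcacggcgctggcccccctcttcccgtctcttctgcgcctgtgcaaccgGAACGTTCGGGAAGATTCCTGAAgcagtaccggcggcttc

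Matches numbered 3, 3, 1 and 4 in Dnaja1, Hsph1, Bag3 and Chordc1, and in Chordc1 all 4 ran together in a single stretch beside the gene start. At least 1 match occurred in 5305 of 33469 promoters of the same length (15.9%) and in 18 of 38 promoters of the heat shock list (47.4%). The heat shock list was counted with 1 promoter per gene, and the 33469 were not reduced in that way. A match describes the letters only, and binding was not measured.

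Genes that sense or clear foreign chemicals showed no call. Cyp1b1, a target of the aryl hydrocarbon receptor that also hydroxylates oestrogens, stood at -3.34, -2.18, -2.08 and -3.88 on the 0.06 arrays, against -3.91, -3.85, -4.28, -3.85 and -3.22 on control arrays. Replicates 2 and 3 at 0.06 were above all controls and the others fell within their range; the difference was 0.95 ± 0.46 log2, and -0.35 on slide 3. Ahr, the receptor itself, differed by -0.51 ± 0.31 log2 (-0.01 after normexp), and its partner Arnt by 0.42 ± 0.16 log2. In the AhR, CAR and PXR list 9 of 16 tested genes lay above the control mean, Arnt alone (6.25%, beside 3.48% of all genes) had an unadjusted p under 0.05, and the median was 0.17 log2. It was 0.01 on slide 1 and 0.06 without replicate 3 at 0.06. Gstt2, a glutathione transferase, stood at 0.66, 0.68, 0.45 and 0.73 on the 0.06 arrays, against 0.10, 0.29, 0.23, 0.34 and 0.55 on control arrays, a difference of 0.33 ± 0.10 log2 with overlap at control replicate 5. Its list had 19 of 30 genes above and a median of 0.11 log2 (0.05 without replicate 2 at 0.06). There 1 gene (3.33%, beside 3.48% of all genes) had an unadjusted p under 0.05. The NRF2 and antioxidant list had 23 of 30 above at a median of 0.12 log2 (0.08 without replicate 1 at 0.06). Of its genes, 6.67% (beside 3.48% of all genes) had an unadjusted p under 0.05. These were the ferritin gene Fth1 at 0.23 ± 0.10 and the cystine transporter gene Slc7a11 at -0.55 ± 0.24 log2 (-0.15 after normexp). For the thyroid hormone axis, 10 of 18 genes lay above the control mean, 0 had an unadjusted p under 0.05 in limma, and the median was 0.01 log2.

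Oxidative phosphorylation genes sat on 1 side by a small amount: 46 of 50 lay above the control mean, with 0 at an unadjusted p under 0.05 in limma and a median of 0.08 log2. Per array, the list median deviation from the control mean was 0.15, 0.16, 0.09 and -0.04 at 0.06, against 0.04, 0.09, 0.07, -0.20 and -0.01 in controls. The groups overlapped, and control replicate 4 was the lowest array. Without replicate 5 at 0.06 the median was 0.16 log2, and without control replicate 4 it was 0.04.

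In the list of DNA methyltransferases, Tet enzymes and imprinted genes, 16 of 19 lay below the control mean, at a median of -0.17 log2. The imprinted genes Cdkn1c (-0.33 ± 0.15 log2), a brake on the cell cycle, and Ndn (-0.28 ± 0.13 log2) had an unadjusted p under 0.05, 10.5% of the list beside 3.48% of all genes. Per array, the list median deviation from the control mean was -0.30, -0.17, -0.13 and -0.13 at 0.06, against 0.03, 0.01, -0.05, -0.01 and 0.01 in controls. In this measure the controls are centred on their own mean. Of the 39 lists this was the only one whose list medians did not overlap between groups, and it was found by looking through them all, so no test is given. The median was -0.11 log2 without replicate 1 at 0.06. After normexp it was -0.07 log2, beside 0.05 over all genes.

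**Figure D2:**
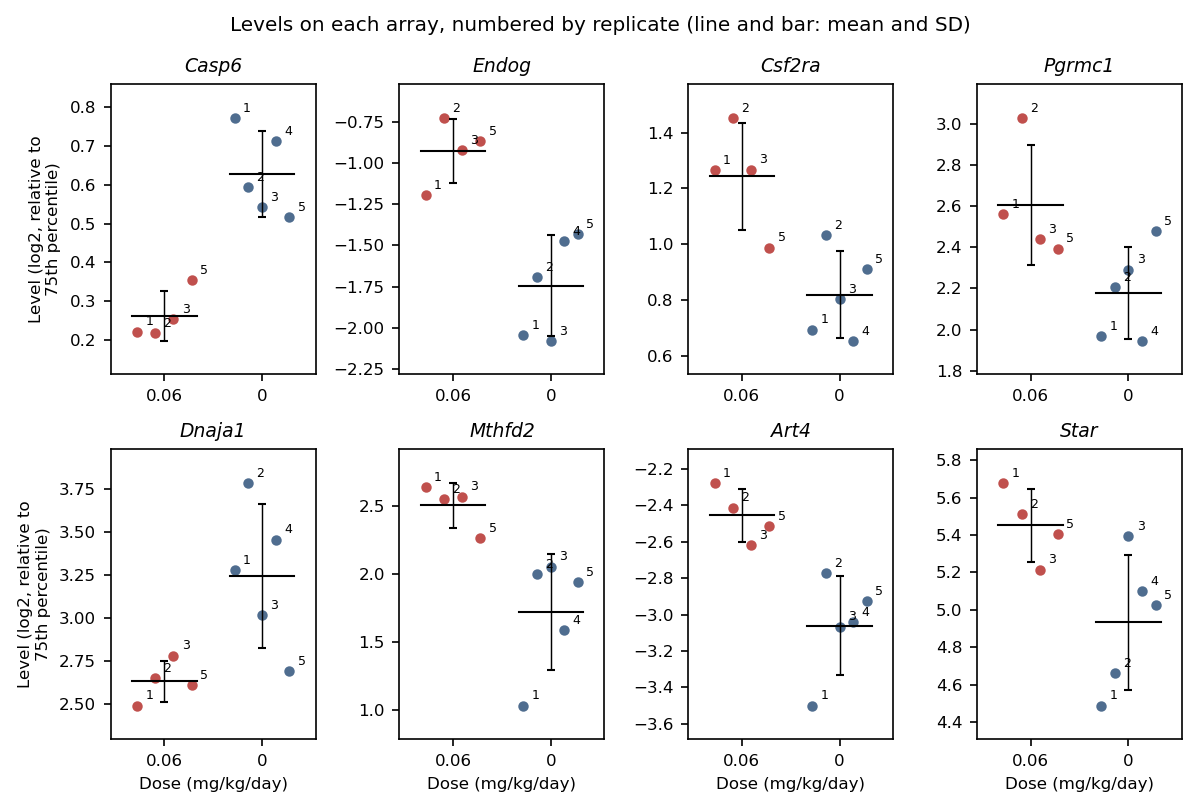
Levels of 8 genes (log2 relative to the 75th percentile of the array) on the 4 arrays at 0.06 mg/kg/day and the 5 arrays at 0 mg/kg/day, each point an array numbered by replicate, with the mean (line) and SD (bar). The groups are separate for Casp6, Endog, Mthfd2 and Art4, and overlap at 1 or more arrays for Csf2ra, Pgrmc1, Dnaja1 and Star.

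Macrophage and monocyte markers lay above the control mean for 22 of 25 tested genes. Csf2ra, the alpha chain of the receptor for granulocyte-macrophage colony-stimulating factor, stood at 1.27, 1.45, 1.27 and 0.99 on the 0.06 arrays, against 0.69, 1.03, 0.80, 0.65 and 0.91 on control arrays. Only replicate 5 at 0.06 overlapped, with control replicate 2, and the difference was 0.42 ± 0.12 log2. Igsf6 (0.57 ± 0.25 log2) and Spi1, the myeloid transcription factor PU.1 (0.55 ± 0.25 log2), were the other list members at an unadjusted p under 0.05, so 12.0% of the list passed that mark beside 3.48% of all genes. The list median was 0.27 log2, but it was -0.00 on slide 1, 0.14 on slide 2 and 0.61 on slide 3. It was 0.12 without replicate 3 at 0.06 and 0.43 without replicate 2. Summed over the list, the linear level relative to the 75th percentile was 36.6 to 73.8 at 0.06 and 37.1 to 59.2 in controls, and the array with the highest sum was replicate 3 at 0.06.

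The groups did not overlap for 89 genes (0.715%), 42 with every exposed array above every control (0.337%) and 47 with every exposed array below (0.377%). The 10 largest differences in each direction were taken, and those not yet described follow. Above the controls were Txk, a T cell tyrosine kinase (1.06 ± 0.39 log2), Klra2, a receptor of natural killer cells (0.74 ± 0.45), Cfp, the complement factor properdin (0.58 ± 0.26), and Tifab (0.66 ± 0.23). Klra2 and Klra5 (1.08 ± 0.35 log2, 0.63 after normexp) belong to a family of near-identical genes, so which member their probes read is uncertain. The T and natural killer cell list as a whole had 9 of 23 genes above the control mean and a median of -0.04 log2.

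A pair of folate enzymes was in the same set. Mthfd2, of mitochondrial one-carbon metabolism, stood at 2.64, 2.55, 2.57 and 2.26 on the 0.06 arrays, against 1.03, 2.00, 2.05, 1.59 and 1.94 on control arrays. Aldh1l1, which oxidises 10-formyltetrahydrofolate in the cytosol, stood at 1.52, 2.21, 1.96 and 1.72 on the 0.06 arrays, against 0.52, 1.42, 1.26, 1.28 and 1.30 on control arrays. For both genes every exposed array was above every control, and control replicate 1 was the lowest. The differences were 0.78 ± 0.26 and 0.69 ± 0.27 log2, and both other probes of Mthfd2 had the same sign. Art4, an ADP-ribosyltransferase that carries the Dombrock blood group in humans, averaged -2.45 ± 0.15 on the 0.06 arrays and -3.06 ± 0.27 on control arrays (SD, n = 4 and 5), a ratio of 1.52.

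Below the controls without overlap were Ppp2r2b, a regulatory subunit of protein phosphatase 2A, P4ha1, which hydroxylates proline in collagen, Zcchc12, Ntaq1, Vwa3a and Zfp286a. Ppp2r2b stood at -4.90, -5.58, -5.46 and -5.36 on the 0.06 arrays, against -4.48, -4.20, -4.80, -3.83 and -4.30 on control arrays. Control values were 2.00-fold those of the exposed arrays on the log2 means, with an SE of 0.41 log2, and the difference after normexp was -0.35 log2. P4ha1 differed by -0.61 ± 0.21 log2, Ntaq1 by -0.46 ± 0.17 (-0.24 after normexp), Zcchc12 by -0.46 ± 0.19 (-0.14 after normexp), Vwa3a by -0.88 ± 0.30 and Zfp286a by -0.71 ± 0.33. The last pair were well above background on 1 of 4 exposed arrays each, against 5 of 5 controls. After normexp they stood at -0.04 and 0.04 log2. Vwa3a stood at -6.06, -5.45, -6.16, -4.99 and -6.14 on control arrays. It was highest on control replicates 2 and 4, which also stood apart for oviduct markers, as given below. Mob3b, a member of a family of kinase activators, was the only gene well above background on every array of 1 group and none of the other: 0 of 4 at 0.06 and 5 of 5 controls. Its difference was -0.21 ± 0.16 log2, only replicate 5 at 0.06 lay below every control, and after normexp the difference was 0.14 log2, so no direction is given.

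The other genes of small p belonged to varied functions. Above the control mean were C13h1orf116 (1.60 ± 0.42 log2), the magnesium transporter gene Slc41a2 (1.05 ± 0.35), Zc3h12d of a family of RNA-degrading zinc finger proteins (0.72 ± 0.21, with another probe of the opposite sign), the matrix glycoprotein gene Emilin3 (0.70 ± 0.23), Echdc3 (0.68 ± 0.22), the J-domain gene Dnajc16 (0.45 ± 0.15), Dmrtc1a (0.35 ± 0.09) and the vesicle-tethering gene Trappc6a (0.35 ± 0.11). Below it were Cct8l2 (-0.75 ± 0.23 log2), the neuropeptide Y receptor gene Npy1r (-0.70 ± 0.22), Hmgcll1 (-0.61 ± 0.19), Spin2a (-0.56 ± 0.17), the trophoblast glycoprotein gene Tpbg (-0.56 ± 0.17), Clec2d2l1 (-0.39 ± 0.12), the protocadherin gene Pcdh18 (-0.39 ± 0.13), the actin-binding gene Nexn (-0.37 ± 0.12), Ndrg3 (-0.34 ± 0.11) and the cyclophilin gene Ppid (-0.24 ± 0.08). After normexp the differences of several were smaller by over 1.5-fold. They stood at 0.84 log2 for C13h1orf116, 0.61 for Slc41a2, 0.43 for Zc3h12d, -0.29 for Npy1r and -0.05 for Cct8l2. Hmgcll1 stood at 0.0084 after normexp. C13h1orf116 was at -7.51 on control replicate 1, against -5.78, -5.00, -5.78 and -5.14 on the other controls. It was well above background on 4 of 5 controls. Within slides 1, 2 and 3 its difference was 2.77, 0.61 and 0.62 log2.

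**Figure D3:**
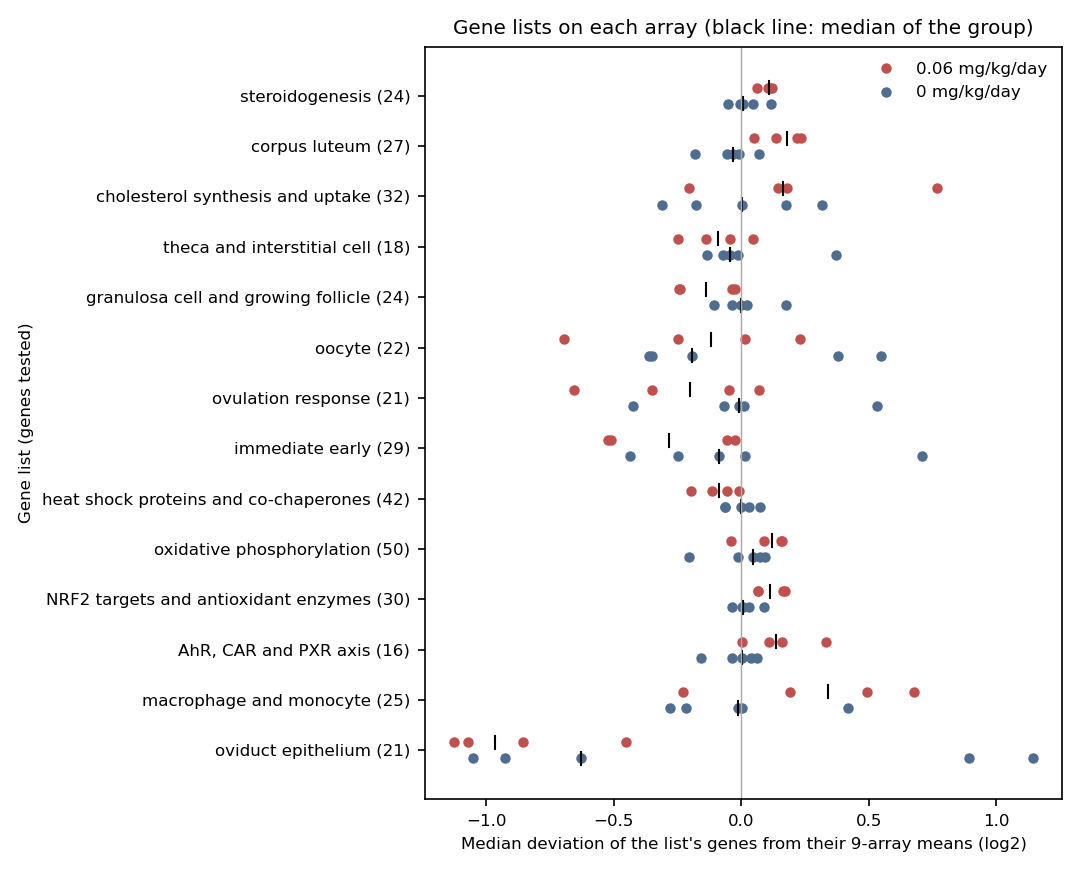
Median over each of 14 gene lists of the genes' deviations from their means over the 5 control arrays (log2, x axis), 1 point per array. The printed axis label names the 9-array means instead. In each row 0.06 mg/kg/day lies above 0 mg/kg/day, and the black line is at the median of the group. The groups overlap in all 14 rows drawn, and control replicates 2 and 4 stand apart at 0.89 and 1.14 for oviduct epithelium.

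Markers of the oviduct, which lies against the ovary at dissection, separated 2 control arrays from the rest. Foxj1, the master regulator of motile cilia, stood at -5.53, -6.76, -8.39 and -6.38 on the 0.06 arrays, against -6.87, -2.20, -7.21, -1.76 and -6.33 on control arrays. It was well above background on 2 of 4 exposed arrays and 4 of 5 controls, and control replicates 2 and 4 were far above all others. Over the list 19 of 21 tested genes lay below the control mean. The median was -0.78 log2, -0.41 without control replicate 4 and -0.30 after normexp. The summed level was 2.60 to 5.59 at 0.06, against 9.91 and 9.42 on control replicates 2 and 4 and 3.06 to 4.68 on the other controls. Without control replicates 2 and 4, Foxj1 differed by 0.04 log2, 0 probes passed the adjusted test and 471 had an unadjusted p under 0.05. The part of oviduct tissue in the other results was not tested.

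Over 10 further lists of cell types (B and plasma cells, T and natural killer cells, adipocytes, endothelium, erythrocytes, fibroblasts, granulocytes and mast cells, nerve and glia, surface epithelium, and smooth muscle), medians ran from -0.05 to 0.19 log2, and 4 of 181 gene entries had an unadjusted p under 0.05 (2.21%). Over 9 further lists of pathways (chemokines and interleukins, interferon response, circadian clock, unfolded protein response, p53 targets, cell cycle, insulin and IGF axis, Wnt and Notch, and the thyroid axis given above), medians ran from -0.13 to 0.08 log2 and 5 of 244 entries had an unadjusted p under 0.05 (2.05%). Both shares lay below the 3.48% over all genes.

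For some genes, animals of the same group differed by many doublings. The SD over the 9 arrays exceeded 1 log2 for 482 genes, and the 10 genes of highest SD ranged from 2.52 to 4.42 log2. Akr1c18, the progesterone-inactivating enzyme, stood at 7.05, -2.48, 6.14 and 6.73 on the 0.06 arrays, against 7.02, 5.95, 6.55, 6.69 and -4.23 on control arrays. A single animal of each group, replicate 2 at 0.06 and control replicate 5, lay far below the others, and the group means differed by -0.04 ± 1.99 log2. It belongs to a family of similar Akr1c genes, and the other probe of the gene had the same sign.

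The same pair of arrays stood apart for further genes. Slc51a, a subunit of a bile acid and steroid transporter, stood at 3.02, -3.01, 3.10 and 3.55 on the 0.06 arrays, against 2.64, 2.72, 2.86, 3.08 and -3.14 on control arrays. Cdkn2b, the cell cycle inhibitor p15, stood at 2.47, -4.37, 0.85 and 2.01 on the 0.06 arrays, against 1.45, 0.79, 1.38, 1.94 and -4.57 on control arrays. The vomeronasal receptor gene Vom2r53 was -6.74 and -6.98 on these 2 arrays, and the collagenase gene Mmp13 was -4.66 and -5.30. Cga, the alpha subunit shared by the pituitary glycoprotein hormones, lay the other way, at -3.22, 2.57, -5.74 and -4.91 on the 0.06 arrays and -5.29, -5.18, -3.68, -4.94 and -0.09 on control arrays. Lhcgr, the luteinizing hormone receptor, was likewise highest on this pair, at 2.10 on replicate 2 at 0.06 and 1.32 on control replicate 5.

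A second pair, replicate 1 at 0.06 and control replicate 3, stood apart for Cyp17a1, the theca enzyme that makes androgens. Cyp17a1 stood at -2.63, 1.71, 3.11 and 2.97 on the 0.06 arrays, against 3.47, 3.13, -2.62, 3.33 and 2.69 on control arrays. Lhcgr was lowest on the same arrays, at -3.10 on replicate 1 at 0.06 and -3.19 on control replicate 3, and lay between -1.45 and -1.04 on the 5 arrays in neither pair. Rln1, relaxin, a hormone of the rat corpus luteum, was high on all 4 arrays of both pairs: 7.48, 7.12, 1.59 and 2.33 on the 0.06 arrays, against -0.22, 1.35, 4.83, 0.77 and 5.68 on control arrays. Its means differed by 2.14 ± 1.57 log2. Each group therefore held 1 animal of each pattern among 4 and 5.

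**Figure D4:**
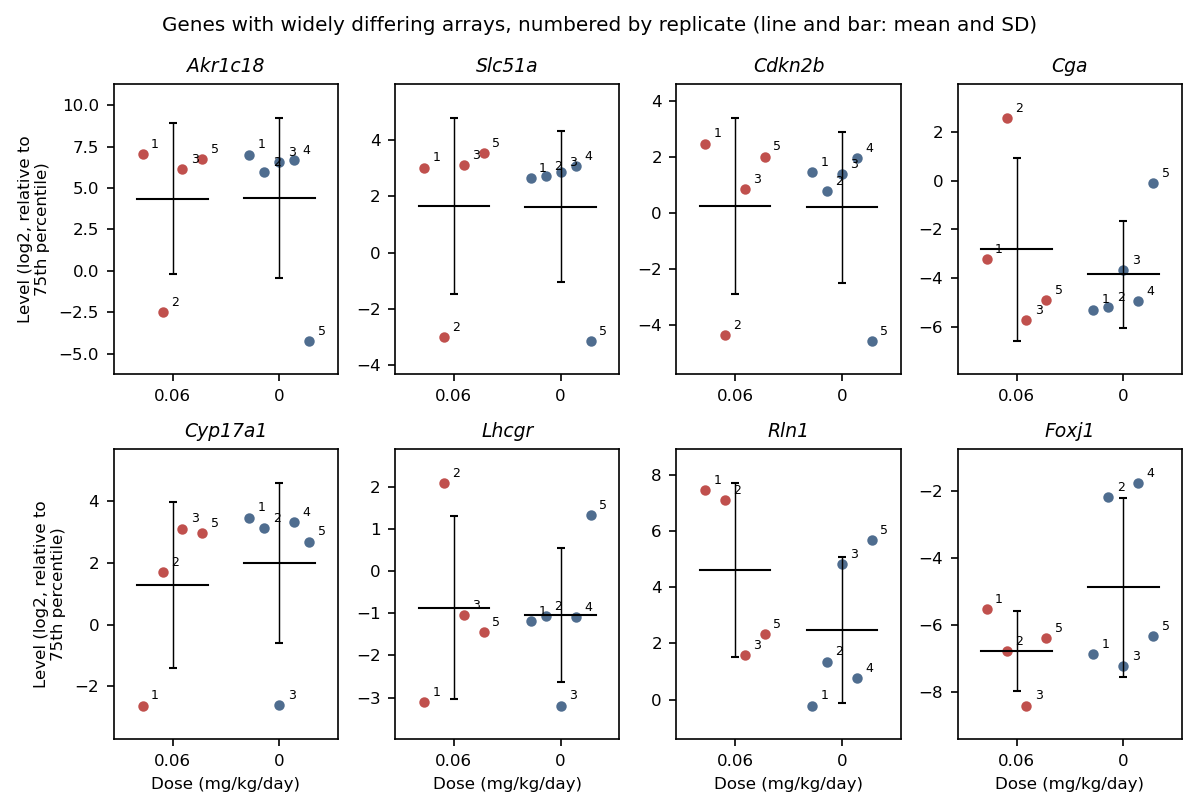
Levels of 8 genes (log2 relative to the 75th percentile of the array) on the 4 arrays at 0.06 mg/kg/day and the 5 arrays at 0 mg/kg/day, numbered by replicate, with the mean (line) and SD (bar). Replicate 2 at 0.06 and control replicate 5 stand apart for Akr1c18, Slc51a, Cdkn2b and Cga, replicate 1 at 0.06 and control replicate 3 for Cyp17a1, all 4 for Lhcgr and Rln1, and control replicates 2 and 4 for Foxj1.

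The likeness of these pairs extended over the whole array. Across 23258 probes, deviations from the group means correlated at r = 0.58 between replicate 2 at 0.06 and control replicate 5 and at r = 0.50 between replicate 1 at 0.06 and control replicate 3. Neither pair shared a slide or a replicate number. Replicate 5 at 0.06 and control replicate 4, which lay on 1 slide, correlated at r = 0.46, and the remaining pairs across groups lay between -0.49 and 0.26. Probes are not independent replicates, and r is given as a description. Leaving out the first pair left 0 probes past the adjusted threshold and 818 at an unadjusted p under 0.05, and leaving out the second left 0 and 805. Orm1, an acute-phase glycoprotein gene, was lowest in its group on the first pair, at -5.96 and -7.87, and Serpinc1, antithrombin, was highest in its group on the second, at 3.25 and 1.66. Hsd3b3, of the same enzyme family as Hsd3b1, followed neither pattern: it was -3.23 on replicate 1 at 0.06 and -1.50 on control replicate 4 and above 5 on the other 7 arrays.

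The same genes can be set beside the higher doses of 20 and 60 mg/kg/day, which share the 5 control arrays, so the values are given side by side without a comparison. Casp6 differed from control by -0.37 log2 at the lowest dose, -0.35 at 20 mg/kg/day and -0.11 at 60 mg/kg/day. In the same order of doses, Endog differed by 0.82, 0.38 and 0.45 log2, and Csf2ra by 0.42, 0.23 and 0.27. Dnaja1 differed by -0.61, -0.48 and -0.28 log2, Pgrmc1 by 0.43, 0.15 and 0.21, and Star by 0.52, 0.29 and 0.30. Cyp1b1 differed by 0.95, 0.83 and 1.39 log2 and Ccn1 by -0.75, -0.66 and -0.78.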

How the data were processed

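Ovary RNA (100 ng) was labelled with Cy3 and hybridised to Agilent 1-colour rat arrays, per the labels' protocols. The deposited scanner files give processed spot intensity from Feature Extraction 11.5.1.1, per the file headers; the deposited value table was a log2 scale centred near 0 and served as an alternative (r = 0.966 to 0.991 for each of the 9 arrays with the scanner values, over 19828 bright probes); it is taken as log2 from that match, since its scale is not stated. Here log2 intensity minus that of the array's 75th percentile over non-control spots was taken, outlier spots were left out and the spots of a probe averaged. Of 30367 probes, 30335 had a value on every array and the 23258 that cleared the scanner's background mark on 4 or more of 20 arrays were tested. Of all probes, 18758 carried 1 symbol from the RefSeq-updated array annotation and 11609 none. Differences come from limma 3.58.1 (R 4.3.3) fitted to all 20 arrays, with Benjamini-Hochberg adjustment at 0.05. Each gene was read on its brightest probe. The fit was tested on simulated data.

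Named genes were the 15 of smallest p in each direction, the 10 largest differences in each direction among groups without overlap, the 10 of highest SD, genes well above background in 1 group only, and key genes with the 3 of smallest p in each list described. The 39 lists and the genes were chosen with earlier results of these data known, so list counts and medians carry no test. The normexp alternative used median spot signals, since the files used here held no mean signal. Alternatives were quantile normalization, normexp (offset 50), other filters, slide and replicate blocks, the 9 arrays alone, array weights, the deposited table, outlier spots kept and each array left out. Cyp19a1 was not analysed here, and some genes taken by the rule are not reported here. The number of arrays limits the precision. Promoters were searched in RefSeq's table for GRCr8. Python 3.11.15 and matplotlib 3.10.9 drew the figures.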

Additional observations from a re-analysis of the deposited data

Results flagged for a closer look

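Within each group, a single array was set against the gap expected among 4 or 5 values (Dixon's test with 95% critical values). Over 276 groups of values, those of the genes named and of the list medians, 26 had an array that far from the rest. Of these 26, 21 were groups of values of a gene. P4ha1, Akr1c18, Hsd3b3 and Slc51a were flagged in both dose groups. Chance flags about 1 in 20 groups of values, but that rate does not apply to this set, since 10 of the genes were taken for their high SD over the same arrays and genes on 1 array are not independent. Levels below are log2 relative to the array's 75th percentile.

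Among the 0.06 arrays, replicate 1 was high for Dnajc16 at -3.49 and low for Hsd3b3 at -3.23 and Kit at -4.06. Replicate 2 at 0.06 was low for Akr1c18 (the annotation's Akr1c3) at -2.48, Slc51a at -3.01 and Fas at -5.70, and high for Arnt at -4.50. Replicate 3 at 0.06 was low for P4ha1 at -2.05 and Ptgfr at -0.68. Replicate 5 at 0.06 was low for Echdc3 at 1.16. For list medians, given as the deviation from the control mean, erythrocyte genes were high on replicate 2 at 0.35, insulin and IGF genes low on replicate 3 at -0.26, and surface epithelium and mesothelium genes high on replicate 1 at 0.33.

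Among the control arrays, replicate 1 was high for P4ha1 at -0.16, Ahr at -4.45 and Klf6 at 0.26 and low for Aldh1l1 at 0.52. Control replicate 2 was high for Hsd3b5 at 5.29, replicate 3 low for Cyp17a1 at -2.62, and replicate 4 low for Hsd3b3 at -1.50. Control replicate 5 was low for Akr1c18 (Akr1c3) at -4.23, Cdkn2b at -4.57 and Slc51a at -3.14, and high for Emilin3 at -3.75. For list medians, Wnt and Notch genes were low on control replicate 3 at -0.13 and theca and interstitial genes high on control replicate 5 at 0.37.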

How the results depend on the processing

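The count of 0 probes past the adjusted threshold held under every alternative run, with lowest adjusted limma p-values from 0.36 without a filter on dim probes to 1.00. The 710 probes at an unadjusted p under 0.05 became 1293 with normexp (1074 above, 219 below), 2767 without a filter (2342 above), 424 with the 9 arrays alone (194 above, 230 below) and 471 without control replicates 2 and 4 (241 below). The share above the control mean was 46.9% in the report, 83.1% with normexp and 84.6% without a filter, so the balance of directions among dim probes depended on their treatment. Probes whose groups did not overlap, 71 above and 76 below, became 617 above and 44 below with normexp and 1901 above without a filter. The 482 genes with an SD over 1 log2 became 155 with normexp and 245 when only probes well above background on all 9 arrays were kept. Leaving out 1 array gave 449 to 1437 probes at an unadjusted p under 0.05, 134 to 669 above and 237 to 805 below: 1437 without replicate 5 at 0.06, 1276 without control replicate 3, 1234 without control replicate 5, 467 without control replicate 1 and 449 without control replicate 4.

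Whether the replicate numbers pair the samples is not known. Same-numbered arrays correlated at r = 0.13, -0.06, 0.26 and 0.00 in their deviations, and low values of r cannot exclude a pairing. With the replicate block 0 probes passed and 422 had an unadjusted p under 0.05 (196 below), and Akr1c18 (Akr1c3) turned to 0.53 log2. The slide block gave 971 probes at an unadjusted p under 0.05 (435 above, 536 below), and the spike-in slope as a block gave 915. With dose in the fit, 4454 of 23258 probes differed between slides at an adjusted limma p under 0.05. The leaving out of pairs of arrays was run too. The spike-in block and the pairs were chosen after seeing the data.

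Of 98 genes named, 16 changed sign in some setting, 6 of them among the 86 whose difference exceeded its SE. With normexp Ptger4 turned to 0.10, Hmgcll1 to 0.0084, Zfp286a to 0.041, Mob3b to 0.14 (0.0053 in the deposited table) and Bmp15 to 0.047 log2. The slide block gave Cdkn2b -0.018 and Slc51a -0.013, the spike-in block -0.031 and -0.0092, and array weights gave Akr1c18 (Akr1c3) 0.028 and Lhcgr -0.044. Without replicate 2 at 0.06 and control replicate 5, Akr1c18 was 0.084 and Lhcgr -0.23. Without replicate 1 at 0.06 and control replicate 3, Hsd3b3 was 1.94, Cdkn2b -0.40 and Slc51a -0.12. Without control replicates 2 and 4, Akr1c18 was 1.24, Cyp17a1 0.11 and Foxj1 0.039. Leaving out 1 array gave ranges of -2.20 to 2.24 for Akr1c18, -1.99 to 1.64 for Hsd3b3, -2.35 to 0.28 for Vom2r53, -0.79 to 1.98 for Cga, -1.15 to 1.58 for Cdkn2b, -1.16 to 1.59 for Slc51a, -1.86 to 0.60 for Cyp17a1, -0.82 to 0.91 for Lhcgr, -0.25 to 0.022 for Zp3 and -0.33 to 0.029 for Gdf9. Where no value shows a cause, the cause was not tested. Of 819 list medians under alternatives, 35 moved by more than the SD between control arrays.

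Group sizes of 4 and 5, unknown litters and cycle stages, and a median standard error of 0.18 log2 limit what could be detected. Levels of dim probes are bounded by background, and signal was lower on 3 of the 4 exposed arrays.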
